A study of Rattus norvegicus with 12 samples.

Results

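Aldoa and Pfkp, 2 genes of glycolysis, were followed across the 3 genotypes of a rat kidney cell line whose RNA was sequenced. They are 2 of 20842 genes in the count table and were chosen because the study lists both as lower in VAMP7KO than in WT cells, so that difference is described here and not tested. Their identifiers, ENSRNOG00000052802 for Aldoa and ENSRNOG00000017163 for Pfkp, were taken from the study's list and found in the table. NRK, a normal rat kidney line that the labels call epithelial, was grown untreated in growth medium (high-glucose DMEM with serum, by the study's methods) as WT, VAMP7KO or ATG5KO cells. VAMP7 is a SNARE protein of membrane fusion and ATG5 a protein needed to build autophagosomes. Each knockout was made with CRISPR-Cas9 and grown from 1 sorted cell, so each is 1 clone and what belongs to the clone cannot be told apart from what belongs to the knockout. There were 4 replicates of each genotype, each from 1 dish, and 12 libraries in all. The replicates form 2 sets, numbers 1 and 2 and numbers 3 and 4, because libraries of a set resemble each other; the labels do not say what sets them apart, and the batch that the study adjusted for is not named.

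Glycolysis splits glucose into pyruvate and gains ATP on the way. Phosphofructokinase adds a second phosphate to fructose 6-phosphate, the committed and most tightly regulated step. Pfkp encodes its platelet isoform, while Pfkm and Pfkl encode the muscle and liver isoforms. Aldolase then cleaves the product, fructose 1,6-bisphosphate, into a pair of triose phosphates; Aldoa encodes the isoform of muscle and of most other tissues. The enzymes thus act one after the other. Both genes are known targets of the hypoxia-inducible factors, which bind sites with the core ACGTG or GCGTG, and many glycolytic promoters carry GC boxes (GGGCGG), which Sp1 binds.

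The promoters are shown because the transcripts of both genes had their highest levels in the same pair of libraries, as described further on. RefSeq places Aldoa on chromosome 1, 190832820 to 190838021 on the minus strand, and Pfkp on chromosome 17, 68639749 to 68704055 on the plus strand, in GRCr8; the reads had been mapped to mRatBN7.2, so these positions were not set against the reads. Each window runs from 250 bases before a transcript's start to 50 after it. Capitals mark every match, on either strand, to the core ACGTG, to the other core GCGTG, to the E-box CACGTG or to the GC box GGGCGG.
Aldoa, window 3, GRCr8 chr1:190836728-190837027, minus strand: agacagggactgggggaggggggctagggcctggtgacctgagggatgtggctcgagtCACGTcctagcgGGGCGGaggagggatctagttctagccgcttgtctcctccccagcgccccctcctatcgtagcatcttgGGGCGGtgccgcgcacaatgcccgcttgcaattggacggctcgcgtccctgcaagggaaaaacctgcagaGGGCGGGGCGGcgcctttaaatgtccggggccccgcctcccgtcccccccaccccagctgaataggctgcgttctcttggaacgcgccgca
Pfkp, GRCr8 chr17:68639563-68639862, plus strand: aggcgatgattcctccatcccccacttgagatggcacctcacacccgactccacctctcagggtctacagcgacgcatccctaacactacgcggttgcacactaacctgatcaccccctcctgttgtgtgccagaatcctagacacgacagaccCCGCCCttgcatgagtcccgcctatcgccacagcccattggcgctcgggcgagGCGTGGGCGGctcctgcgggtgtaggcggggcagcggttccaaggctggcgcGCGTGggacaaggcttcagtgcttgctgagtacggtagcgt
Positions are counted from the start site as 1, with the base before it as -1. The Aldoa window holds ACGTG on its other strand at -192, read as CACGT here, and GGGCGG at -180, -111, -41 and -36, of which the last pair share bases. The Pfkp window holds GCGTG at -43, which shares a base with GGGCGG at -39, again GCGTG at 10, and GGGCGG on the other strand at -96, read as CCGCCC. RefSeq gives Aldoa 3 windows, and the other two hold no match to these 4 motifs. CACGTG is in none of the 4 windows of the pair of genes. Of 33365 windows of 300 bases in the rat, 19.3% hold the core ACGTG, 29.7% the core GCGTG, 6.43% the E-box and 33.1% the GC box. A match is a run of letters, and binding was not measured.

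Aldoa was highest in WT replicates 1 and 2. In CPM (reads of a gene per 1000000 counted reads, with library sizes scaled by the TMM method), its level in WT replicates 1 to 4 was 19.1, 17.5, 8.48 and 13.2. In VAMP7KO it was 9.36, 7.19, 8.16 and 12.4 CPM, and in ATG5KO 9.94, 13, 14.3 and 12.9 CPM. The 2 high WT libraries thus lay above all of the other 10, which spanned 7.19 to 14.3 CPM, while WT replicates 3 and 4 lay among the knockout libraries.

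Pfkp had the same 2 libraries on top and a wider gap. Its level in WT replicates 1 to 4 was 24.1, 23.6, 11.3 and 10.4 CPM. It was 11.5, 9.64, 8.27 and 10.3 CPM in VAMP7KO and 10.9, 14.7, 11.8 and 12.7 CPM in ATG5KO. The WT libraries split into a high and a low pair with nothing between them, and the low pair lay within the range of the knockout libraries.

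**Figure D1:**
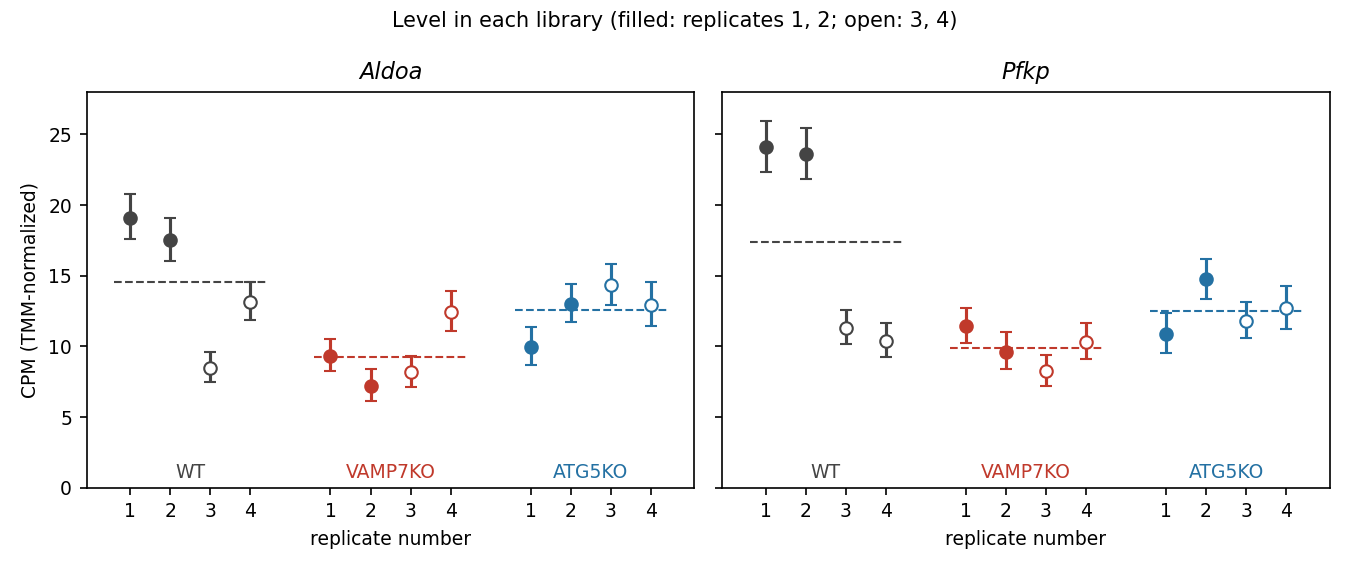
Level of Aldoa (left) and Pfkp (right) in each of the 12 libraries, in TMM-normalized CPM on a linear axis from 0, by genotype and replicate number. Points are libraries (filled for replicates 1 and 2, open for 3 and 4), bars are 95% Poisson intervals of the count, and dashed lines are the means of a genotype; WT replicates 1 and 2, at 17.5 to 19.1 CPM for Aldoa and 23.6 to 24.1 CPM for Pfkp, lie above the other 10 libraries.

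WT replicates 1 and 2 exceeded the mean of the other 10 libraries 1.68-fold for Aldoa and 2.14-fold for Pfkp. Both genes belong to the 8.71% of the 13141 tested genes whose level in these 2 libraries was above that in all of the other 10. This share describes the table, and since the choice of both genes used the WT libraries it lends the pattern no support. The counts behind these levels were 159 to 566 reads for Aldoa and 213 to 713 for Pfkp, which leaves a counting error of at most 7.93% and 6.85% per library. In bulk RNA, fewer cells that make a transcript and less of it in each cell cannot be told apart.

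Libraries of the same genotype and set were closer to each other for Pfkp than for Aldoa. For Pfkp the higher library of such a pair exceeded the lower 1.02-fold to 1.36-fold, and the 95% Poisson intervals were apart in 1 of 6 pairs, ATG5KO replicates 1 and 2. For Aldoa the ratio was 1.09 to 1.55, and the intervals were apart in 3 of 6 pairs, namely WT replicates 3 and 4, VAMP7KO replicates 3 and 4, and ATG5KO replicates 1 and 2. The spread that edgeR estimated between replicates (biological coefficient of variation) was 0.134 for Aldoa and 0.0883 for Pfkp, beside a median of 0.0694 over all tested genes. Aldoa also has close copies in the rat genome, as RefSeq names 9 pseudogenes and 1 retrogene after it and none after Pfkp. Over all libraries Aldoa averaged 12.1 CPM, at rank 8573 of 13141 tested genes and below their median of 27.4 CPM. Pfkp averaged 13.3 CPM, at rank 8416. Reads shared with a copy could have been dropped or split in counting, so the level of Aldoa and its differences between libraries are uncertain. How many reads were shared was not tested.

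By genotype, the order of mean levels was WT, ATG5KO, VAMP7KO for both genes. Aldoa averaged 14.6 ± 4.78 CPM in WT, 12.6 ± 1.86 in ATG5KO and 9.28 ± 2.27 in VAMP7KO (SD, n = 4). Pfkp averaged 17.4 ± 7.52 CPM in WT, 12.5 ± 1.65 in ATG5KO and 9.92 ± 1.33 in VAMP7KO (SD, n = 4). Neighbours in this order overlapped for both genes, as did WT and VAMP7KO, whereas ATG5KO and WT did not overlap in 28.2% of tested genes and VAMP7KO and ATG5KO in 28.4%.

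Between VAMP7KO and WT, the contrast that had put both genes on the study's list, Aldoa differed by -0.64 on the log2 scale (standard error 0.251) and Pfkp by -0.74 (standard error 0.224), in a fit blocked on replicate number. Of all tested genes, 15.5% had WT and VAMP7KO libraries that did not overlap, and neither of these genes was among them. The value was further from 0 in replicates 1 and 2. There Aldoa differed by -1.13 (standard error 0.205) and Pfkp by -1.17 (standard error 0.143), whereas in replicates 3 and 4 the values were -0.08 (standard error 0.208) and -0.23 (standard error 0.152). Leaving out WT replicate 1 alone brought Aldoa to -0.41. All 4 pairs of equal number had the lower level in VAMP7KO for both genes. For Aldoa, however, the log2 ratios of replicates 3 and 4 were only -0.05 and -0.08, and for Pfkp that of replicate 4 was -0.0079. Equal numbers added no pairing beyond the set, so these pairs follow the labels only. Across numbers, Aldoa in VAMP7KO replicate 4 (12.4 CPM) was above WT replicate 3 (8.48 CPM).

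Between ATG5KO and WT neither gene passed the test. Aldoa differed by -0.18 (standard error 0.250, adjusted p = 0.585) and Pfkp by -0.39 (standard error 0.223, adjusted p = 0.173; edgeR's quasi-likelihood test, Benjamini-Hochberg over all tested genes), while 46.3% of tested genes were called at an adjusted p under 0.05. This contrast shares its WT libraries with the one used for the choice. Log2 ratios of ATG5KO to WT in pairs of equal number were -0.94, -0.43, 0.76 and -0.02 for Aldoa, lower in ATG5KO in 3 of 4, and -1.15, -0.68, 0.06 and 0.29 for Pfkp, lower in 2 of 4. In replicates 1 and 2 the log2 difference was -0.67 for Aldoa (standard error 0.199) and -0.89 for Pfkp (standard error 0.140), and in replicates 3 and 4 it was 0.34 (standard error 0.204) and 0.17 (standard error 0.148). Of the Aldoa pairs only that of replicate 3 was above 0, and pairs of equal number follow the labels only. Fitted on replicates 1 and 2 alone, Aldoa (-0.69, adjusted p = 0.00311, edgeR) and Pfkp (-0.91, adjusted p = 0.000199, edgeR) both passed. On replicates 3 and 4 alone neither did, at adjusted p = 0.0569 and adjusted p = 0.209 (edgeR). The first fit rests on the high WT libraries that were part of the choice, so its calls are not independent of that choice. With 2 libraries of each genotype, its p-values measure only the spread within the set. Without WT replicate 4, which is the lowest WT library for Pfkp, Pfkp passed at -0.61 (adjusted p = 0.0372, edgeR). Aldoa reached 0.02 both without WT replicate 1 and without ATG5KO replicate 1.

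VAMP7KO and ATG5KO cells were compared directly. Both genes were chosen as low in VAMP7KO, so this contrast shares its VAMP7KO libraries with that choice and its direction is not independent of it. Aldoa was at -0.46 in VAMP7KO against ATG5KO (standard error 0.252, adjusted p = 0.163) and Pfkp at -0.35 (standard error 0.225, adjusted p = 0.236; edgeR), and neither passed, in a comparison with 44.9% of tested genes called. Without the WT libraries in the fit, the adjusted p was 0.0738 for Aldoa and 0.0927 for Pfkp (edgeR). This difference had the same sign in both sets for both genes. The log2 difference was -0.47 (standard error 0.214) in replicates 1 and 2 and -0.42 (standard error 0.207) in replicates 3 and 4 for Aldoa, and -0.28 (standard error 0.149) and -0.40 (standard error 0.152) for Pfkp. In that model of genotype by set, Aldoa passed in neither set (adjusted p = 0.0797 and adjusted p = 0.101), and Pfkp passed in replicates 3 and 4 (adjusted p = 0.0345) but not in replicates 1 and 2 (adjusted p = 0.129; edgeR). When each set was fitted alone, Aldoa passed in both (adjusted p = 0.0442 and adjusted p = 0.0253, edgeR) and Pfkp in replicates 3 and 4 (adjusted p = 0.00600) but not in replicates 1 and 2 (adjusted p = 0.200), so the call for Aldoa depends on the fit. Paired by label only, Aldoa was lower in VAMP7KO in 4 of 4 pairs of equal number, and Pfkp in 3 of 4, replicate 1 being the exception at 0.08. Without ATG5KO replicate 3, the difference of Aldoa over all libraries was -0.21.

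**Figure D2:**
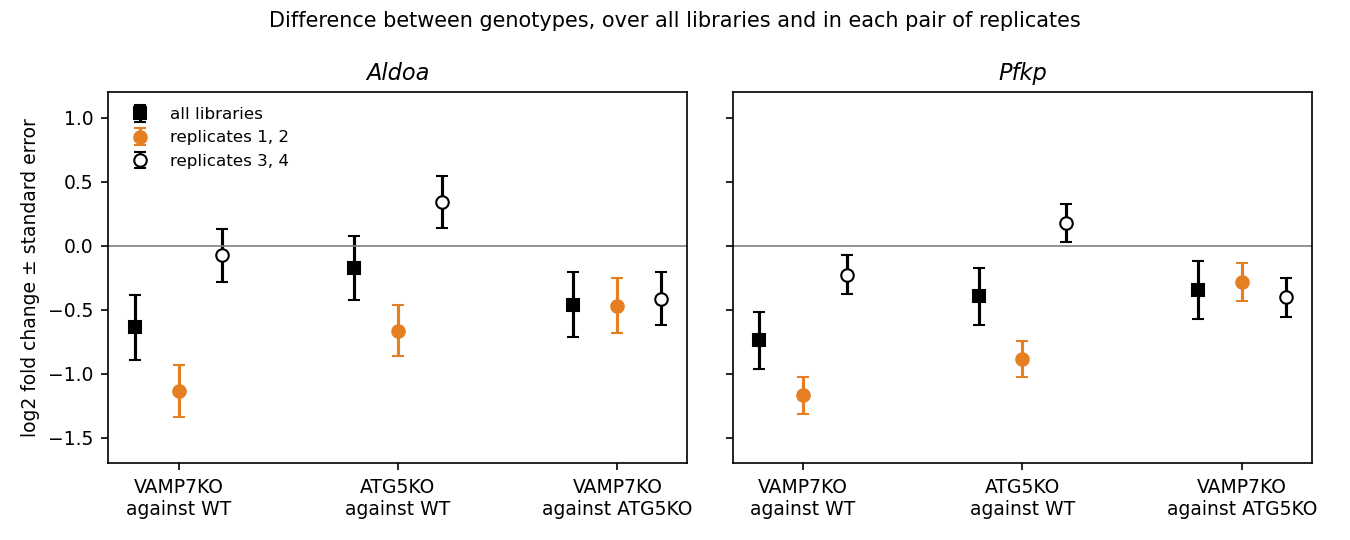
Log2 fold change of Aldoa (left) and Pfkp (right) between genotypes, in the 12 libraries together (squares) and within each pair of replicates (circles, orange for 1 and 2, open for 3 and 4); bars are standard errors. The comparisons with WT move from -1.13 to -0.08 and from -0.67 to 0.34 for Aldoa between the sets, whereas VAMP7KO against ATG5KO stays between -0.47 and -0.28 for both genes.

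Whether a knockout effect changed from set to set was tested by an interaction term, a test chosen with the split by set already visible in levels the study printed, and so not independent of them. A higher effect means a higher log2 difference from WT, so a negative effect that became higher was weaker or had changed sign. For Pfkp the effect of VAMP7KO was higher in replicates 3 and 4 by 0.94 (standard error 0.208, adjusted p = 0.00433) and that of ATG5KO by 1.06 (standard error 0.204, adjusted p = 0.000815; edgeR). For Aldoa the changes were 1.06 (standard error 0.292, adjusted p = 0.0188) and 1.01 (standard error 0.285, adjusted p = 0.0132). Of all tested genes, 16.5% were called in the VAMP7KO interaction (8.97% with a higher effect) and 28.9% in that of ATG5KO (14.4% higher). Both interactions use the same WT libraries, so they are not separate lines of evidence. With 2 libraries of each genotype and set, these p-values measure the spread within a set and not how effects vary between sets. The call held for Pfkp with any of the 12 libraries left out. For Aldoa that of VAMP7KO was lost without WT replicate 1 (adjusted p = 0.0670), WT replicate 3 (adjusted p = 0.0993) or VAMP7KO replicate 4 (adjusted p = 0.124), and that of ATG5KO without WT replicate 3 (adjusted p = 0.0651), ATG5KO replicate 1 (adjusted p = 0.0515) or ATG5KO replicate 3 (adjusted p = 0.0625, all edgeR).

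Within WT, both genes fell from replicates 1 and 2 to replicates 3 and 4. Pfkp went from a mean of 23.9 to 10.9 CPM, a log2 change of -1.13 (standard error 0.141, adjusted p = 1.92e-06), and Aldoa from 18.3 to 10.8 CPM, a change of -0.76 (standard error 0.198, adjusted p = 0.00277; edgeR). Sets differed in much of the transcriptome, and in WT 61.9% of tested genes were called in either direction. The sets were formed because their libraries resemble each other, so many calls between them follow from how they were formed. The split of both genes in WT was already visible in levels the study printed, so these p-values are not independent support. The call for Aldoa was lost without WT replicate 3, at -0.49 (adjusted p = 0.0650). Within VAMP7KO neither gene passed: Aldoa was at 8.27 and 10.3 CPM (0.30, adjusted p = 0.259) and Pfkp at 10.5 and 9.30 CPM (-0.19, adjusted p = 0.300), where 56.1% of tested genes were called. The same held within ATG5KO, where Aldoa was at 11.5 and 13.6 CPM (0.24, adjusted p = 0.343) and Pfkp at 12.8 and 12.3 CPM (-0.07, adjusted p = 0.701; edgeR), with 52.1% of genes called.

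Few other genes of glycolysis could be described. Of 34 listed genes of glycolysis, from glucose transporters to lactate transporters, only 8 have an identifier paired with a symbol in the sources used here, among them the 2 described and the 5 others that could be tested, Slc2a4, Hk3, Pfkm, Bpgm and Ldhb. All 8 are on the study's lists of changed genes, so they were not drawn evenly from the pathway, and enzymes such as Gapdh, Pkm and Ldha were not analysed here. Of those 5, none had a knockout effect called as higher in replicates 3 and 4, where 8.97% (VAMP7KO) and 14.4% (ATG5KO) of tested genes were, so 0 of 5 is near the background; 2 for VAMP7KO (Bpgm and Ldhb) and 1 for ATG5KO (Bpgm) had one called as lower. For Hk3, at the floor in every knockout library, the interaction could not be measured, and no difference between these genes and Aldoa or Pfkp was tested. Their own levels mostly followed the set, and 3 fell from replicates 1 and 2 to 3 and 4 in WT, 3 in VAMP7KO and 4 in ATG5KO, and none rose; of all tested genes 31.4%, 28.3% and 27.6% were called as lower. Their median log2 change was -0.91 in WT, -1.35 in VAMP7KO and -0.95 in ATG5KO (Hk3, at the floor of 3 counts in both knockouts, left out there), beside -0.01, -0.0076 and -0.03 over all tested genes.

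Pfkm, the muscle isoform of phosphofructokinase, is the closest relative of Pfkp among them. It fell between sets in all 3 genotypes, from a mean of 49.8 to 22.5 CPM in WT, from 60.4 to 25.1 CPM in VAMP7KO and from 140.9 to 67.5 CPM in ATG5KO. The log2 changes were -1.15, -1.27 and -1.06 (standard errors 0.0916, 0.0916 and 0.0856). Its knockout effects changed between sets by -0.12 for VAMP7KO (standard error 0.129, adjusted p = 0.595) and by 0.09 for ATG5KO (standard error 0.124, adjusted p = 0.645; edgeR). In WT the fall of Pfkp and that of Pfkm were thus of like size, -1.13 and -1.15, and in the knockouts that of Pfkm alone passed the test; the difference between the genes was not tested. Pfkm also stood lower in VAMP7KO than in ATG5KO, by -1.32 (standard error 0.0742, adjusted p = 1.13e-06, edgeR).

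Bpgm, which makes 2,3-bisphosphoglycerate, had the opposite interaction to Aldoa and Pfkp. It was at 51.4 and 46.2 CPM in the 2 sets of WT, at 143.9 and 61.4 CPM in VAMP7KO and at 93.8 and 52.7 CPM in ATG5KO. Its knockout effects fell by 1.08 (adjusted p = 1.44e-05) and by 0.68 (adjusted p = 0.000722; edgeR) from replicates 1 and 2 to 3 and 4. Its levels split by set in the knockouts and stayed within 43.2 to 51.6 CPM over the 4 WT libraries.

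Ldhb, the heart subunit of lactate dehydrogenase, fell between sets in every genotype, from 31.6 to 16.8 CPM in WT, from 99.6 to 36.7 CPM in VAMP7KO and from 15.3 to 10.6 CPM in ATG5KO. It was 2.26 higher on the log2 scale in VAMP7KO than in ATG5KO (adjusted p = 7.12e-06), the only gene of the 5 to be higher there. Slc2a4, the insulin-responsive glucose transporter, was low everywhere, at 0.07 to 1.18 CPM in WT, 0.04 to 0.50 CPM in VAMP7KO and 0.90 to 4.79 CPM in ATG5KO. It was the second of 2 genes, with Pfkm, that were lower in VAMP7KO than in ATG5KO (-3.83, adjusted p = 1.78e-05, edgeR), although 1 VAMP7KO library had no more than 3 counts. Between VAMP7KO and ATG5KO, 23.6% of all tested genes were called as lower in VAMP7KO and 44.9% in either direction. Hk3, a hexokinase, was at 1.61 to 2.74 CPM in WT and at no more than 3 counts in every knockout library.

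**Figure D3:**
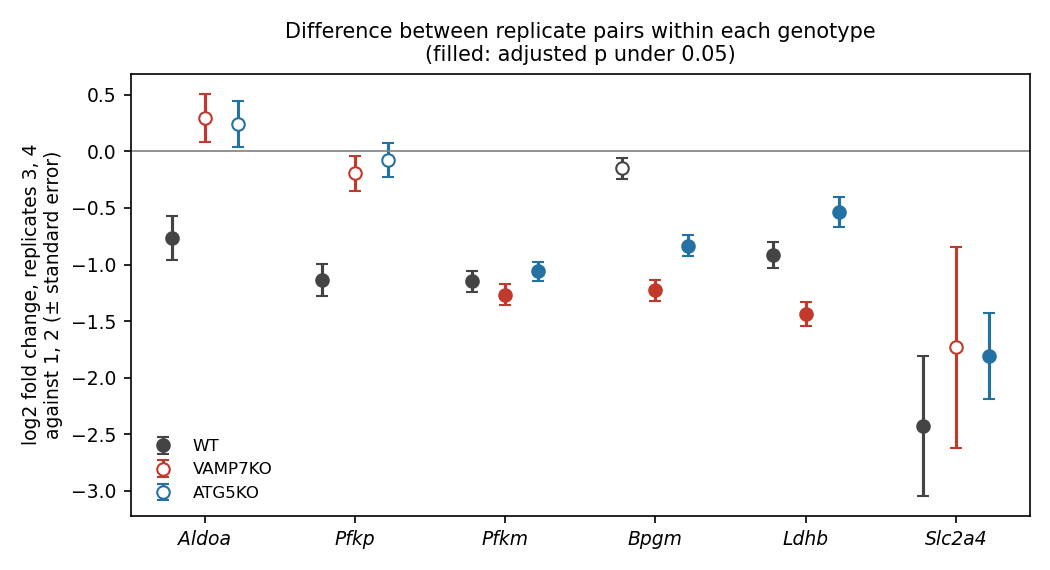
Log2 fold change of replicates 3 and 4 against replicates 1 and 2 within WT (grey), VAMP7KO (red) and ATG5KO (blue) for Aldoa, Pfkp and 4 other genes of glycolysis; bars are standard errors, and filled points passed an adjusted p of 0.05. Aldoa and Pfkp are filled in WT only, at -0.76 and -1.13, while Pfkm is filled in all 3 genotypes at -1.06 to -1.27.

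Genes that steer carbon around glycolysis were few among those with a known symbol. Of 17 regulators of glycolysis and of pyruvate entry into mitochondria 3 could be tested: Pdk2 and Pdk4, kinases that switch off pyruvate dehydrogenase, and Pdp1, a phosphatase that switches it on. In WT, Pdk2 fell between sets from 17.7 to 5.79 CPM (-1.61) and Pdk4 from 1.37 to 0.18 CPM (-2.83), both past the test, whereas Pdp1 was at 106 and 103 CPM. For Pdk4, 1 WT library had no more than 3 counts. Pdk2 fell in VAMP7KO as well, from 22.5 to 10.6 CPM (-1.08), and less in ATG5KO, from 28.8 to 22.3 CPM (-0.37). The effect of ATG5KO on it changed between sets by 1.24 (adjusted p = 0.00025) and that of VAMP7KO by 0.53 (adjusted p = 0.106; edgeR). Pdp1 rose between sets in ATG5KO, from 86.0 to 106 CPM, and the effect of ATG5KO on it changed by 0.34 (adjusted p = 0.0204, edgeR). Thus 2 of 3 regulators had a higher effect of ATG5KO in replicates 3 and 4, beside 14.4% of tested genes, and none had a changed effect of VAMP7KO that passed the test. All 3 regulators were lower in VAMP7KO than in ATG5KO, as were 23.6% of tested genes, with a median log2 difference of -0.75 beside -0.0059 over all tested genes. These 3 genes come from the study's lists of changed genes, so values over all tested genes are not an even background for them.

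Fbp2, the muscle fructose-bisphosphatase that reverses the step of phosphofructokinase, was the 1 of 18 genes of gluconeogenesis and glycogen that could be tested. It was at 0.03 to 0.34 CPM in WT, 0.22 to 1.72 CPM in VAMP7KO and 1.26 to 8.50 CPM in ATG5KO, and fell between sets in all 3 genotypes. In WT, however, 2 of 4 libraries had no more than 3 counts of Fbp2. Of 17 genes of the pentose phosphate pathway and of the entry of other sugars 3 were tested. H6pd, which feeds hexose phosphates into that pathway in the endoplasmic reticulum, Sord, which makes fructose from sorbitol, and Galt, of galactose use, were all lower in VAMP7KO than in ATG5KO, at -0.79, -1.60 and -0.61 on the log2 scale. Of all tested genes 23.6% were called as lower in that comparison, and these 3 genes come from the study's lists of changed genes. Sord and Galt fell between sets in every genotype, while H6pd rose in WT, from 45.0 to 55.6 CPM, and was not called in the knockouts. Called as lower between sets were 31.4% of tested genes in WT, 28.3% in VAMP7KO and 27.6% in ATG5KO. No symbol of the 20 listed cell cycle genes was paired with an identifier, so growth rate could not be read from these data.

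Hypoxia-induced genes outside glycolysis were looked at because Aldoa and Pfkp are known to respond to the same factors. Of 20 such genes 3 are described, and they did not move together between sets in WT: Egln3 (-0.39) and Adm (-0.98) fell, while Ndrg1 (0.74) rose, all past the test. Egln3 encodes a prolyl hydroxylase that marks hypoxia-inducible factors for destruction. It was the only one of the 3 with a higher, here less negative, effect of both knockouts in replicates 3 and 4. It was at 62.1 and 47.5 CPM in the sets of WT, 18.5 and 19.5 CPM in VAMP7KO and 13.4 and 18.0 CPM in ATG5KO. These effects rose by 0.47 for VAMP7KO (adjusted p = 0.0184) and by 0.82 for ATG5KO (adjusted p = 0.000153; edgeR). Unlike Aldoa and Pfkp, Egln3 was lower in both knockouts in either set, with 13.1 to 19.9 CPM in the 8 knockout libraries against 45.0 to 62.3 CPM in WT. For Adm, which encodes adrenomedullin, the effect of VAMP7KO was -0.91 in replicates 1 and 2. It was less negative in replicates 3 and 4, with a change of 0.71 (adjusted p = 0.00624, edgeR). For Ndrg1 the effect of VAMP7KO became lower, with a change of -0.58 (adjusted p = 0.000893, edgeR). Of all tested genes, 61.9% were called between the sets of WT. The VAMP7KO effect was called as changed in 16.5% of tested genes and as higher in 8.97%. For ATG5KO 14.4% were called as higher. The 3 genes described come from the study's lists of changed genes, so these shares are not an even background for them. The other listed hypoxia genes are not described.

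Whether Aldoa and Pfkp moved in step was read from the log2 ratio of their counts in a library, which does not depend on depth. Since the genes differ in length, the ratio is compared between libraries only. It was 0.33, 0.43, 0.42 and -0.34 in WT replicates 1 to 4, 0.29, 0.42, 0.02 and -0.27 in VAMP7KO, and 0.13, 0.18, -0.28 and -0.03 in ATG5KO. By set, the mean ratio was 0.30 ± 0.124 in replicates 1 and 2 and -0.08 ± 0.285 in replicates 3 and 4 (SD, n = 6). This difference between sets was not tested. The means by genotype were 0.21 ± 0.371 in WT, 0.12 ± 0.306 in VAMP7KO and 0.0013 ± 0.206 in ATG5KO (SD, n = 4). No pair of genotypes passed a 2-sided exact permutation test, whose smallest possible p with 4 libraries against 4 is 0.0286. The differences were -0.09 for VAMP7KO against WT (exact p = 0.714), -0.21 for ATG5KO against WT (exact p = 0.4) and 0.12 for VAMP7KO against ATG5KO (exact p = 0.486), and each had an adjusted p of 0.714 over the 3 exact tests.

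Across the 12 libraries, Pfkp was the gene whose log2 CPM ran most like that of Aldoa (Pearson r = 0.81) among 635 genes with a known symbol and a mean of at least 10 CPM. After it came Msi2, an RNA-binding protein (0.795), Ecm1, of the extracellular matrix (0.793), and Lrrn3 and Lurap1l (0.785 each). In the other direction, Aldoa was only at rank 25 of the 635 genes for Pfkp. The likeness of Aldoa and Pfkp rested in part on the 2 high WT libraries, and r was 0.59 over the other 10. Nearest to Pfkp were Cdh17, a cadherin of gut and liver (0.940), Fam102b (0.915), Ecm1 (0.903), Ttc21b, of intraflagellar transport in cilia (0.898), and LOC681458 (0.889). The libraries share genotype and set, so these values describe a profile over 12 libraries, and all of these genes come from the study's lists.

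The like genes shared the high level in WT replicates 1 and 2, which their choice by profile favours, but not its size. Relative to that level, WT replicates 3 and 4 had a mean of 59.1% for Aldoa and 45.5% for Pfkp. Fam102b stood at 50.5% and Ttc21b at 58.6%, near both, whereas Cdh17 stood at 6.77%, having gone from 79.5 to 5.38 CPM, and Lrrn3 at 9.80%. In VAMP7KO replicates 3 and 4 Aldoa had 56.2% of the level of WT replicates 1 and 2 and Pfkp 39.0%, and in ATG5KO replicates 3 and 4 they had 74.4% and 51.4%.

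**Figure D4:**
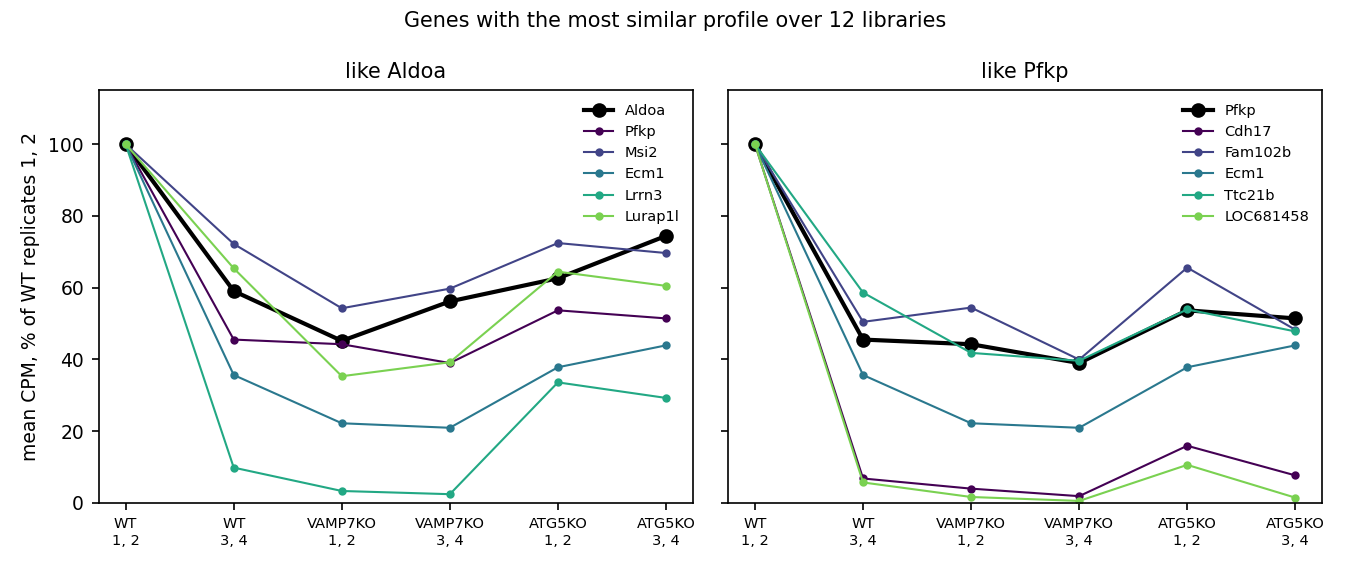
Mean CPM in each genotype and set as a percentage of the mean in WT replicates 1 and 2, for Aldoa (left) and Pfkp (right), each as a thick black line with the 5 named genes of the most similar profile. Every line starts at 100% and drops to WT replicates 3 and 4, from 72.2% for Msi2 down to 9.80% for Lrrn3 on the left and from 58.6% for Ttc21b down to 5.67% for LOC681458 on the right.

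The knockout of Vamp7 could be checked in the counts, with 3046 to 3525 reads in WT and 1025 to 1553 in VAMP7KO (log2 difference -1.27, standard error 0.0772); the identifier of Atg5 was not known. Depth was 21090858 to 31525111 counts per library. Of the epithelial markers 2 of 14 could be read, Krt8 at 452 to 875 CPM and Cdh16 at no more than 1.96 CPM. These 2 do not settle the epithelial label. Col1a1, a fibroblast marker, was at 464 to 2606 CPM over all libraries, and the study's text uses both fibroblastic and epithelial for its cells. The fibroblast markers that could be read (7 of 14) summed to 1473 and 1523 CPM in the WT libraries with high Aldoa and Pfkp and to 585 and 602 CPM in the other two, but also to 3145 and 3311 against 1186 and 1123 CPM in the sets of VAMP7KO and to 4029 and 4025 against 2237 and 2361 CPM in ATG5KO, where Aldoa and Pfkp did not pass the test between sets. Col1a1 and Col3a1 made up most of these sums, at means of 1244 and 175 CPM in WT replicates 1 and 2. Of the 7 markers, 5 were called as lower in replicates 3 and 4 in each genotype, beside 31.4%, 28.3% and 27.6% of tested genes. Twist1 was not called in WT, at 69.1 and 61.1 CPM, and Postn rose in VAMP7KO from 0.28 to 4.55 CPM. Dcn and Thy1 had a library at 0 in WT, Thy1 also in VAMP7KO, and Postn was at 0 in all of ATG5KO. Muscle markers (3 of 13 read) summed to 9.59 to 15.0 CPM in WT, 45.8 to 110.8 CPM in VAMP7KO and 82.9 to 104.0 CPM in ATG5KO, and Myod1 was at 0 in all of VAMP7KO. The sums of the knockouts rest on different muscle genes. In VAMP7KO Acta2 averaged 74.0 CPM and Des 1.11 CPM. In ATG5KO Des averaged 66.8 CPM, Myod1 18.9 CPM and Acta2 8.74 CPM, the last beside 9.39 CPM in WT. The part of all these markers in the levels of Aldoa and Pfkp was not tested.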

How the data were processed

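The authors sequenced RNA of NRK cells of 3 genotypes (4 replicates each) from 600 ng of total RNA with a stranded poly(A) kit. Reads of 50 bases were trimmed with cutadapt 4.2, freed of rRNA with bowtie 2.2.8, aligned by STAR 2.7.10b (mRatBN7.2) and assigned to Ensembl 110 genes by htseq-count 0.13.5; the strand setting is not given in the sources used here. The deposited values are raw read counts per gene. Depth was 21090858 to 31525111 counts, and intervals cover counting error only.

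Genotype and replicate number came from the labels. Counts were fitted with edgeR 4.0.16 (R 4.3.3, limma 3.58.1): TMM, filterByExpr (13141 of 20842 genes), all 12 libraries, quasi-likelihood test, replicate number as a block, calls at an adjusted p under 0.05. Sets and interactions came from a second model of genotype by set. Deviations of libraries of equal number from their genotype means correlated at 0.56 to 0.68, and those of a set with unequal numbers at 0.53 to 0.68, so the number adds no pairing beyond the set. P-values measure the spread between these libraries. In the second model this is the spread between the 2 libraries of a genotype and set, so its p-values do not measure variation between sets. The fits were tested on simulated data. Alternatives were DESeq2 1.42.0 (its size factors, its Wald test), 2 other filters, other blocks, fewer samples and each library left out. The members and lists were chosen with earlier results of these data known. Named genes are the members, Vamp7, the pathway and hypoxia genes with a known symbol (1976 genes have one, from the study's lists) and the 5 genes most like each member. Fold changes printed in the study's tables were not used, and 2 genes of the lists are not reported here.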

Additional observations from a re-analysis of the deposited data

Results flagged for a closer look

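The knockout effects on both genes were called as different between the replicate sets (3 and 4 against 1 and 2) by the interaction test of edgeR. For Aldoa it changed by 1.06 on the log2 scale for VAMP7KO and by 1.01 for ATG5KO, and for Pfkp by 0.94 and 1.06. All 4 values use the same 4 WT libraries. The test was chosen with the split by set already visible, so its calls are not independent of that split. With 1 library left out, the call for Aldoa was lost in 3 of 12 fits for each knockout.

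In WT, replicate 4 stood apart in the log2 ratio of Pfkp to Aldoa counts, at -0.34 against 0.33 to 0.43 in the other 3 libraries. Its gap to the nearest library was 0.874 of the range of the group, above Dixon's 95% limit for 4 samples. Of 9 groups of 4 tested in this way only this one passed, and chance alone flags about 1 in 20.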

How the results depend on the processing

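Under DESeq2's size factors, the DESeq2 Wald test and both filters, both genes kept their sign in all comparisons and their side of the threshold in all that were tested, which leaves out VAMP7KO against WT. With no replicate block, the values were -0.65 for Aldoa and -0.81 for Pfkp in VAMP7KO against WT, and no call for them changed, but genes called fell from 6081 to 3102 in ATG5KO against WT and from 5903 to 2997 in VAMP7KO against ATG5KO; with replicates summed within each set they were 2101 and 1976. The permutation within pairs of equal number, as a replicate block, gave an exact adjusted p of 0.625 for all 3 ratios of Pfkp to Aldoa. ATG5KO against WT went from -0.69 (Aldoa) and -0.91 (Pfkp) in replicates 1 and 2 only to 0.35 and 0.17 in replicates 3 and 4 only. VAMP7KO against ATG5KO passed for Aldoa in both such fits (-0.46 and -0.42), though in neither set in the model of genotype by set (adjusted p = 0.0797 and adjusted p = 0.101, edgeR), and for Pfkp in replicates 3 and 4 (-0.40). The cause of these shifts was not tested.

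With 1 library left out, the ranges were -0.87 to -0.41 (Aldoa) and -0.96 to -0.53 (Pfkp) for VAMP7KO against WT, -0.42 to 0.02 (0.020 without WT replicate 1, 0.018 without ATG5KO replicate 1) and -0.61 to -0.19 for ATG5KO against WT, and -0.64 to -0.21 and -0.52 to -0.23 for VAMP7KO against ATG5KO. For Aldoa, the interaction ran from 0.74 to 1.41 (VAMP7KO) and from 0.76 to 1.39 (ATG5KO), and replicates 3 and 4 against 1 and 2 from -1.12 to -0.49 in WT and from -0.038 (without VAMP7KO replicate 4) to 0.57 in VAMP7KO. Pfkp ran from -0.25 to 0.18 (without ATG5KO replicate 2) between the sets of ATG5KO. The ratio of Pfkp to Aldoa in VAMP7KO against WT ran from -0.28 to 0.034 (without VAMP7KO replicate 4). Genes called in the VAMP7KO interaction ran from 1312 (without VAMP7KO replicate 3) to 2722, with 1335 and 1419 without WT replicates 3 and 4. At 159 to 713 counts, differences of a few percent between libraries were not detectable.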
